A study of Mus musculus with 6 samples.

Results

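The replication-dependent histone genes encode the H1, H2A, H2B, H3 and H4 proteins that package newly copied DNA. They were chosen by symbol, as H1f1 to H1f5 and every symbol made of H2ac, H2bc, H3c or H4c and a number, with pseudogenes left out. The rule found 62 genes among the 26469 in the count table: 5 of class H1, 17 of H2A, 16 of H2B, 12 of H3 and 12 of H4. Counts were high enough to test 61 of them. The exception, H2ac14, had an estimated count of 1.70 in mutant 1 and of about 0 in the other libraries.

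Sf3b1 encodes a splicing factor that helps to recognise the branch point of introns, and the K700E change in it occurs in human cancers. The study asked how this change affects the formation of regulatory T cells (Tregs). Naive splenic CD4+ T cells were taken from mice that carry the Sf3b1K700E/fl alleles, either without Cre (3 libraries annotated WT, called control here) or with Cd4Cre (3 libraries annotated Sf3b1 mutation, called mutant here). Cre under the Cd4 promoter acts in developing T cells, so that the conditional allele was present in all 6 libraries and the recombinase only in the mutant ones. All cultures received TGF-β at 5 ng/ml, hamster antibodies to CD3 and CD28, and antibodies to IL-4 and IFNγ for 36 h, a mixture that drives naive cells towards Tregs. Neither the age of the mice nor whether each library came from a separate animal or culture is given, so a p-value here reflects spread between libraries alone, which may be technical.

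Histone H1 is the linker histone, which binds the DNA where it enters and leaves the nucleosome, whereas H2A, H2B, H3 and H4 form the octamer around which the DNA is wound. Their replication-dependent genes lie in clusters, mostly lack introns and are transcribed in S phase. Their mRNAs are known for ending in a stem-loop in place of a poly(A) tail. The stem-loop is bound by SLBP, and the mRNA is cut just past it with the help of the U7 small nuclear ribonucleoprotein. Library construction here started from 1.0 µg of total RNA and depleted ribosomal RNA without selecting for poly(A), so that such mRNAs are retained.

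Total counts per library ran from 33633196 to 43928723. The biological coefficient of variation, the spread within a group beyond counting error, was 0.227 for the controls, 0.350 for the mutants and 0.235 once mutant 1, which stood apart, was left out of the latter. Markers of CD4 T cells summed to 1519 to 2108 CPM (counts relative to the scaled library total) in control and 1670 to 2559 CPM in mutant libraries, and Foxp3, the factor that defines Tregs, ran from 108 to 139 and from 52.3 to 230 CPM. Both CD8 T cell markers summed to 5.81 to 40.4 and 6.56 to 17.3 CPM, with control 1 highest, and 4 B cell markers to 1.89 to 4.12 and 3.59 to 28.7 CPM, with mutant 2 highest. Sums for the other lists were at most 3.91 CPM (5 myeloid genes), 0.961 CPM (3 NK cell genes) and 2.25 CPM (7 erythroid genes) in any library. The part of these cells in the histone values was not tested.

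The stem-loop is shown first because it is what the mRNAs of this family share, and because its letters separate class H4 from the others. The motif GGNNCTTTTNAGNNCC, with the 6 bases at each end able to pair, was searched on the transcript strand in the GENCODE M21 transcripts (GRCm38). It was found in 40 of the 62 members and in 49 of 21901 protein-coding genes in all (0.224%). Only 9 of the genes that hold it were not members. Each line gives a site 5′ to 3′ in DNA letters, with the 16 bases of the stem-loop in capitals.
H1f4: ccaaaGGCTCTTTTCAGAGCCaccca
H2ac18: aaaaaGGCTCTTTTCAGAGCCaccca
H2bc8: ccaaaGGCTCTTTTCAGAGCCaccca
H2ac20: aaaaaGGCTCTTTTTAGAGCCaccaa
H2bc12: ccaaaGGCTCTTTTAAGAGCCactaa
H3c6: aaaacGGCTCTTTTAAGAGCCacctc
H4c4: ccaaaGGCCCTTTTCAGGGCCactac
H4c14: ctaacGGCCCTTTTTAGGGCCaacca
H4c11: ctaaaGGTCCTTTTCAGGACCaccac

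The first form, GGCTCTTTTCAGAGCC, occurred in 24 members: 3 of H1, 9 of H2A, 7 of H2B and 5 of H3. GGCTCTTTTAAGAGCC occurred in 2 H2B and 3 H3 genes, and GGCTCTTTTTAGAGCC in 1 H2A gene, H2ac20. The H4 genes with a match held none of these. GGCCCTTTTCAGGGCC was found in 6 of them, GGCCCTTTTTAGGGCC in 2 and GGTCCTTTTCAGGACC in 2, and no member of another class held these forms. A transcript without a match says only that the letters are not in that annotated model. Among the 40 members with a match the annotated model ended within 100 bases after the loop in 22 and ran farther in 18.

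Promoter stretches are shown for 1 member of each class, because the classes were compared and differ in the letters just upstream of their starts. Each is the member with the smallest p in edgeR's test, described below, among those of its class with a single window. It was thus chosen by its difference here and need not be typical of its class. The H4 example, H4c3, is one of the few H4 genes that hold CCAAT. Windows of 250 bases before the annotated start (RefSeq, GRCm38.p6) were at hand for 55 of the 62 members. They were searched on both strands for 4 short motifs. CCAAT is the box that the NF-Y factor recognises, and TATAAA is a common form of the TATA box. ATTTGCAT is the octamer that POU2F1 recognises, and AAACACA is an element known from H1 promoters. The nearest 150 bases are printed 5′ to 3′ on the gene's strand, with matches to these letters or their reverse complement in capitals. No matches overlapped each other.
H1f1, chr13:23763518-23763667, plus strand: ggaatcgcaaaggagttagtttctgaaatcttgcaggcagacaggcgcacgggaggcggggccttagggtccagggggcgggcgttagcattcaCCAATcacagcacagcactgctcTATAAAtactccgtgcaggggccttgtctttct
H2ac18, chr3:96245347-96245496, plus strand: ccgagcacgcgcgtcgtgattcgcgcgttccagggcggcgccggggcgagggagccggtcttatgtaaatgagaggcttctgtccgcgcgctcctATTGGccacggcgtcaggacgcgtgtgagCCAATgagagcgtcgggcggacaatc
H2bc8, chr13:23571250-23571399, plus strand: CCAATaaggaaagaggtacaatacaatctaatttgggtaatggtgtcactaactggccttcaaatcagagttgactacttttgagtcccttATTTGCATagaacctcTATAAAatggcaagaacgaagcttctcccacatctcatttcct
H3c6, chr13:23562386-23562535, minus strand: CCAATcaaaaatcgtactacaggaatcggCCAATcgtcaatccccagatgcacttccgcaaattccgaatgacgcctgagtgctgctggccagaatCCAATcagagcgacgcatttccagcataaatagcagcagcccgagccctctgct
H4c3, chr13:23698459-23698608, minus strand: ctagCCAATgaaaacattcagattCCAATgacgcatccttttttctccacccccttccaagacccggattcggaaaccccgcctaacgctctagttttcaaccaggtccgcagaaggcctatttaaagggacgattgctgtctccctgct

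CCAAT was in the windows of 5 of 5 H1, 16 of 16 H2A, 13 of 13 H2B and 8 of 10 H3 genes, but of 3 of 11 H4 genes. Members were counted per gene, with a match in any window of the gene, whereas all 32851 windows from RefSeq were counted singly. CCAAT was held by 81.8% of the member genes and by 33.8% of all windows. TATAAA was in 47.3% of member genes and 12.4% of all windows. The octamer was in 5 of 16 H2A and 6 of 13 H2B genes and in no gene of the other classes, against 1.60% of all windows. AAACACA was in 4 of 5 H1 genes, the exception being H1f1, and in 6.25% of all windows. These matches describe the letters only. They are not shown to be sites that a factor uses, and H2A and H2B genes transcribed from a shared region share part of their windows.

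Histone transcripts measured lower in the mutant libraries in all 5 classes, and by a similar proportion in each. Summed over the 62 members, they came to 8215, 8955 and 9016 CPM in control 1, 2 and 3 and to 5464, 5354 and 6834 CPM in mutant 1, 2 and 3. Every mutant sum lay below every control sum, with mutant 3 nearest to the controls. The mutant mean was 67.4% of the control mean, a log2 ratio of -0.57. As a share of all counts, the members took 0.860 ± 0.042% in control and 0.596 ± 0.075% in mutant libraries (SD, n = 3). Less histone RNA per cell and fewer cells making it, such as cells in S phase, cannot be told apart in bulk RNA.

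The linker class H1 summed to 2128, 2114 and 2226 CPM in control 1, 2 and 3 and to 1523, 1231 and 1553 CPM in mutant 1, 2 and 3, 66.6% of the control mean. Class H2A summed to 1257, 1386 and 1305 CPM in the controls and to 802, 753 and 1031 CPM in mutant libraries, 65.5% of the control mean. Class H2B summed to 1787, 2313 and 2353 CPM in the controls and to 1299, 1432 and 1757 CPM in mutant libraries, or 69.6%. In these 3 classes the groups did not overlap, although for H2B the lowest control library, control 1, lay only just above mutant 3. H3 genes summed to 1299, 1283 and 1271 CPM in the controls and to 818, 779 and 1045 CPM in mutant libraries, or 68.6%. H4 genes summed to 1743, 1859 and 1861 CPM in the controls and to 1022, 1159 and 1447 CPM in mutant libraries, or 66.4%. In H3 and H4 too every mutant library was below every control library.

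**Figure D1:**
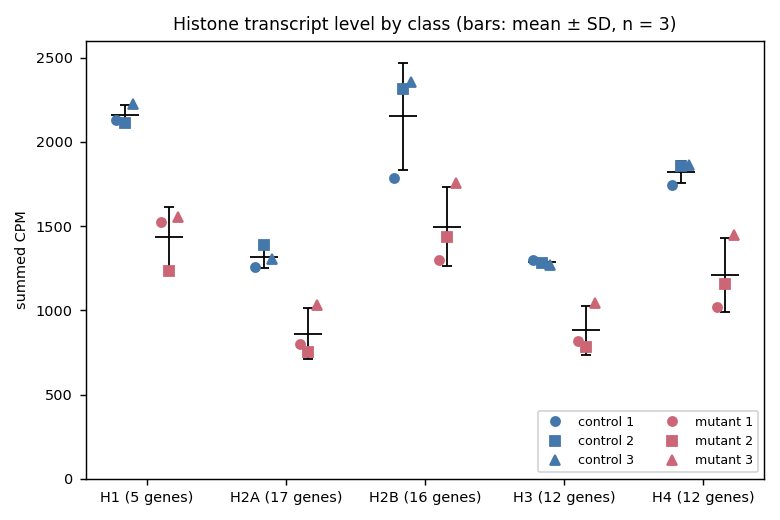
Summed CPM of the members of each histone class (y axis, from 0) in the 3 control and 3 mutant libraries, 1 point per library, with the mean and SD of each group. The mutant libraries sit below the control libraries in all 5 classes, at 65.5% to 69.6% of the control mean.

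The make-up of the histone pool by class was nearly the same in both groups. H1 made up 24.7 ± 1.15% of member CPM in the controls and 24.5 ± 2.90% in mutant libraries (SD, n = 3). The shares were 15.1% and 14.6% for H2A, 24.6% and 25.4% for H2B, 14.7% and 14.9% for H3, and 20.9% and 20.5% for H4, in control and mutant libraries. Each of these differences was smaller than the larger of the SDs of both groups. These are shares of reads, not of molecules, since longer mRNAs give more reads.

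No member passed edgeR's quasi-likelihood test with Benjamini-Hochberg adjustment, and neither did any of the 18323 genes tested (0%). Adjusted p-values of the members ran from 0.598 to 0.995. At an unadjusted p under 0.05, 37 of 61 members were lower in mutant libraries, where 3.48% of all genes tested were, and 1 member, H2bc21, was higher, where 4.14% of all genes were. Groups did not overlap in 43 members, of which 42 were below every control library in all mutant libraries (7.48% of all genes) and 1 was higher (6.6% of all genes). In the other 18 members the groups overlapped. Among the 57 members with a mean of 10 CPM or more, 42 were lower without overlap, against 10.8% of the 9372 genes at that level, and 37 were lower at an unadjusted p under 0.05, against 5.05% of those genes.

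The fitted log2 fold change was below 0 in 57 of 61 members and in 47.1% of all genes tested, or 54.9% of genes at 10 CPM or more. Its median was -0.51 over the members and 0.02 over all genes. By class the median was -0.55 for H1, -0.50 for H2A, -0.48 for H2B, -0.50 for H3 and -0.60 for H4. In 38 members the mutant mean was between 60% and 75% of the control mean. The 4 members that were not lower were H2bc21, H2ac21, H2bc13 and H3c14, and 3 of them were among the 4 tested members with a mean under 10 CPM.

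**Figure D2:**
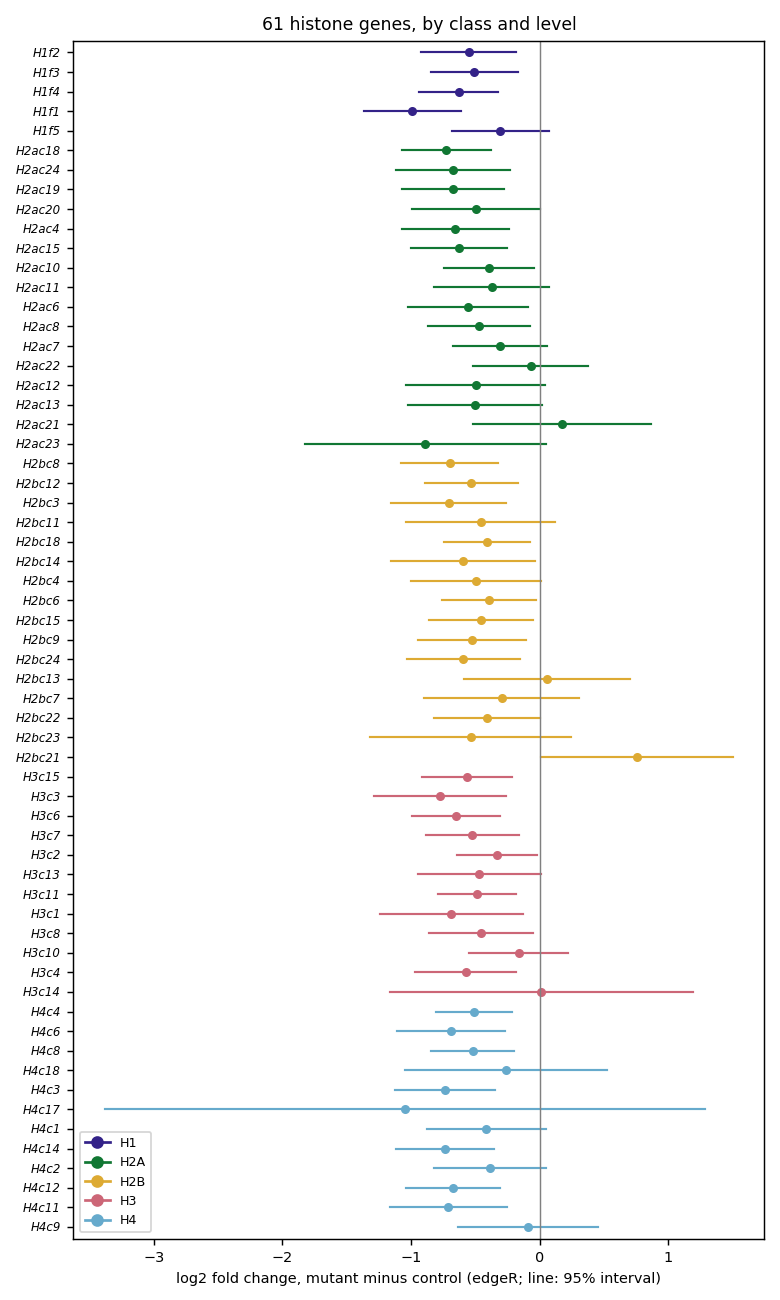
Log2 fold change, mutant minus control (x axis), of the 61 tested histone genes, grouped by class and ordered by level within it, with 95% intervals from edgeR's fit. Points of 57 genes lie below 0, most near -0.5, and the widest interval belongs to H4c17.

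DESeq2, the other count test, called 99 genes in all and 3 members. H1f1 (adjusted p = 0.000901), H2ac18 (0.0394) and H1f4 (0.0430) were lower, as were 0.307% of the genes to which it gave an adjusted p. Its number of member calls depended on single libraries. It was 0 without control 1 and without control 3, and 1, H1f1, without control 2 and without mutant 2. It was 9 without mutant 1 and 22 without mutant 3. In these fits the share of all genes called lower was 0.042%, 0.0123%, 0.346%, 0.539%, 0.68% and 0.617%, in the same order. limma-voom called 0 genes (0%), with 40 members lower at an unadjusted p under 0.05, against 3.79% of all genes. With edgeR the count of 37 was 24 without control 3, where 1.15% of all genes were lower by that rule. It was 27 without mutant 2 (3.25% of all genes) and 49 without mutant 3 (5.21%). It was 38 without control 1 (1.71%), 29 without control 2 (3.51%) and 35 without mutant 1 (3.9%).

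The linker histone genes were among the most abundant members, and all 5 were below every control library in all mutant libraries. The share of all genes with such separation was 7.48%, or 10.8% at 10 CPM or more. H1f1 (ENSMUSG00000049539), a linker variant, was at 378, 302 and 407 CPM in control 1, 2 and 3 and at 177, 166 and 204 CPM in mutant 1, 2 and 3. The mutant values were close to each other and the lowest control value lay well above all of them. The fitted difference on the log2 scale was -0.99 ± 0.16 (SE), with 95% limits of -1.37 and -0.61 and the joint smallest adjusted p in edgeR's test, 0.598. Its counts were whole numbers in every library, which leaves no sign of reads divided with a copy.

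H1f4 was at 425, 427 and 451 CPM in the controls and at 275, 259 and 309 CPM in mutant libraries, a log2 fold change of -0.63 ± 0.13 (SE). H1f2, the most abundant member, was at 576, 596 and 589 CPM in the controls and at 468, 329 and 406 CPM in mutant libraries (-0.55 ± 0.16). Both genes had narrow control groups and a wider mutant group. H1f3 was at 475, 515 and 511 CPM in the controls and at 358, 303 and 394 CPM in mutant libraries (-0.51 ± 0.15). H1f5 was at 273, 273 and 267 CPM in the controls and at 246, 174 and 239 CPM in mutant libraries, the smallest difference of the class (-0.31 ± 0.16; 95% interval from -0.68 to 0.07), and -0.14 without mutant 2. In all 5 H1 genes mutant 2 was the lowest library.

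Within the H1 pool the measured shares of 2 variants were separate between the groups, which was not tested. Shares of the same pool are not independent, since a lower share of a gene raises those of the others. H1f1 made up 17.8%, 14.3% and 18.3% of H1 CPM in control 1, 2 and 3 and 11.6%, 13.5% and 13.2% in mutant 1, 2 and 3. H1f5 made up 12.8%, 12.9% and 12.0% in control and 16.1%, 14.1% and 15.4% in mutant libraries. Neither gene's shares overlapped between groups, H1f1 being the lower and H1f5 the higher in mutant libraries, though control 2 was within 1 percentage point of mutant 2 for H1f1. The shares of H1f2 (27.3% and 27.9%) and H1f4 (20.2% and 19.7%) differed by less than the SD among mutant libraries. H1f3 took 23.2% and 24.5%.

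H2A pairs with H2B as a dimer at the face of the nucleosome, and its 16 tested genes split into a few abundant and many low ones. H2ac18, the most abundant, was at 444, 489 and 428 CPM in control 1, 2 and 3 and at 252, 252 and 317 CPM in mutant 1, 2 and 3. Its coding sequence is identical to that of H2ac19, which was at 145, 142 and 153 CPM in the controls and at 99.7, 70.8 and 105 CPM in mutant libraries. In both genes the groups were far apart, and mutant 3 was the highest mutant library. Reads may be divided between identical copies, and their sum, which does not depend on that division, was 590, 630 and 581 CPM in the controls and 352, 323 and 422 CPM in mutant libraries, a log2 ratio of -0.71. The fitted log2 fold changes of the single genes were -0.73 ± 0.15 and -0.67 ± 0.17 (SE).

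H2ac24 was at 147, 167 and 159 CPM in the controls and at 88.1, 80.6 and 127 CPM in mutant libraries (log2 fold change -0.67 ± 0.19, SE). H2ac23, with the same coding sequence, was at 2.09, 1.25 and 2.64 CPM in the controls and at 0.735, 1.10 and 1.39 CPM in mutant libraries. H2ac23 had the lowest log2 fold change of the class, -0.89 ± 0.40, but its groups overlapped through control 2. H2ac20 was at 101, 134 and 103 CPM in the controls and at 61.9, 75.2 and 103 CPM in mutant libraries, with mutant 3 level with the lower controls (-0.49 ± 0.21). H2ac21 was the only tested H2A gene with a higher mutant mean, at 3.05, 3.66 and 3.03 CPM in the controls and 3.67, 2.63 and 4.67 CPM in mutant libraries (0.17 ± 0.30). Its groups overlapped, and without mutant 3 the sign turned (-0.05). The 10 other tested genes ran from -0.65 (H2ac4) to -0.07 (H2ac22).

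H2B genes were lower by much the same measure, with overlap in 7 of 16 genes. Control 1 was the lowest control library in 15 of them. H2bc8 was at 281, 324 and 358 CPM in control 1, 2 and 3 and at 173, 190 and 230 CPM in mutant 1, 2 and 3 (log2 fold change -0.70 ± 0.16, SE). H2bc12 was at 243, 283 and 308 CPM in the controls and at 168, 194 and 216 CPM in mutant libraries (-0.53 ± 0.16). In both genes the highest mutant library, mutant 3, was still below the lowest control library. H2bc3 was at 233, 310 and 317 CPM in the controls and at 154, 155 and 217 CPM in mutant libraries, the lowest log2 fold change of the class (-0.71 ± 0.19). H2bc11 was at 161, 254 and 225 CPM in the controls and at 118, 141 and 207 CPM in mutant libraries (-0.46 ± 0.25). Its mutant 3 value exceeded control 1, so that the groups overlapped. In 8 of the 16 genes every mutant library was below every control library, against 7.48% of all genes, or 10.8% at 10 CPM or more.

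H2bc21 was the only member of any class that was higher in every mutant library. It was at 3.60, 3.54 and 3.91 CPM in control 1, 2 and 3 and at 9.21, 4.70 and 4.78 CPM in mutant 1, 2 and 3. Mutant 1 stood far above the other mutant libraries, which were closer to the controls than to it. The fitted log2 fold change, 0.76 ± 0.32 (SE), had 95% limits of 0.01 and 1.5, with an adjusted p of 0.645 in edgeR's test. Without mutant 1 it was 0.38. The counts of this gene, too, were whole in every library. The other H2B gene with a higher mutant mean, H2bc13, was at 49.2, 65.9 and 60.2 CPM in the controls and at 40.8, 88.5 and 53.2 CPM in mutant libraries, with only mutant 2 above the controls (0.06 ± 0.28; -0.29 without mutant 2). H2bc13 was named after its values were seen.

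Among the 55 members with a promoter window, 8 pairs of an H2A and an H2B gene with the same number had overlapping windows on opposite strands. H2bc4, H2bc21, H2bc24 and H2ac14 had no window, so that pairs with them could not be found. Of the same-numbered genes left out in this way, H2ac21 and H2bc21 both had a higher mutant mean. H2ac4 and H2bc4 both had a lower one, as did H2ac24 and H2bc24. Both genes were lower in 7 of the 8 pairs found, for instance H2ac8 and H2bc8 (log2 fold changes -0.47 and -0.70) and H2ac15 and H2bc15 (-0.63 and -0.46). Levels within a pair could be far apart: H2ac12 was at 21.5 CPM and H2bc12 at 278 CPM on average in control libraries. The remaining pair was H2ac13 (-0.50) and H2bc13 (0.06).

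H3 carries the tail on which many chromatin marks are placed, and 10 of its 12 genes were below every control library in all mutant libraries. Of all genes tested 7.48% were lower without overlap, or 10.8% of those at 10 CPM or more. H3c15 was at 254, 273 and 254 CPM in control 1, 2 and 3 and at 157, 164 and 208 CPM in mutant 1, 2 and 3 (log2 fold change -0.56 ± 0.15, SE). H3c3 was at 171, 199 and 179 CPM in the controls and at 98.9, 78.9 and 144 CPM in mutant libraries, the lowest log2 fold change of the class (-0.77 ± 0.22). H3c6, with the smallest p of the class, was at 155, 136 and 154 CPM in the controls and at 85.8, 88.8 and 109 CPM in mutant libraries (-0.65 ± 0.15). Each of these genes had a tight control group, with mutant 3 the highest mutant library. H3c7 was at 148, 136 and 143 CPM in the controls and at 95.2, 84.2 and 118 CPM in mutant libraries (-0.52 ± 0.16). H3c14 was low and uneven, at 5.72, 4.69 and 4.19 CPM in the controls and at 1.5, 6.29 and 6.93 CPM in mutant libraries. Mutant 1 was the lowest and mutant 3 the highest of all 6 libraries, and the log2 fold change of 0.01 ± 0.51 turned negative in 8 of the alternative fits.

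H4 is the most conserved core histone and had the lowest class median. H4c4, whose stem-loop is printed above, was at 251, 254 and 267 CPM in control 1, 2 and 3 and at 184, 165 and 194 CPM in mutant 1, 2 and 3 (log2 fold change -0.51 ± 0.13, SE). H4c6 was at 208, 242 and 238 CPM in the controls and at 118, 131 and 177 CPM in mutant libraries (-0.69 ± 0.18), and H4c8 at 204, 222 and 211 CPM in the controls and 135, 141 and 168 CPM in mutant libraries (-0.52 ± 0.14). In all 3 genes the groups were clearly separate. H4c14 was at 118, 133 and 129 CPM in the controls and at 62.9, 74.7 and 90.9 CPM in mutant libraries, with whole counts throughout (-0.74 ± 0.16). H4c9 had the highest log2 fold change of the class, -0.09 ± 0.24, at 20.2, 18.9 and 20.5 CPM in the controls and 13.2, 17.8 and 25.0 CPM in mutant libraries. Its mutant libraries lay on both sides of the controls, and without mutant 1 the sign turned (0.12).

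H4c17 and H4c18 have identical coding sequences, and their values ran in opposite directions among the mutant libraries. H4c17 was at 178, 193 and 194 CPM in control 1, 2 and 3 but at 58.4, 3.60 and 211 CPM in mutant 1, 2 and 3. H4c18 was at 158, 162 and 169 CPM in the controls and at 120, 215 and 74.0 CPM in mutant libraries. In mutant 2, where H4c17 was lowest, H4c18 was highest, and in mutant 3 the reverse held. Their sum was 336, 355 and 363 CPM in the controls and 178, 219 and 285 CPM in mutant libraries, with no overlap (log2 ratio -0.63). In mutant 1 both genes were below every control library. Whether reads were divided differently between the copies was not tested. The single-gene log2 fold changes of -1.05 ± 1.01 and -0.26 ± 0.34 (SE) rest on these uneven values. That of H4c17 was -2.61 without mutant 3, -0.46 without mutant 2 and -2.40 with limma-voom. The pair H2bc23 and H2bc24 also summed lower without overlap, with a log2 ratio of -0.58, as did H2ac23 and H2ac24, with -0.68.

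**Figure D3:**
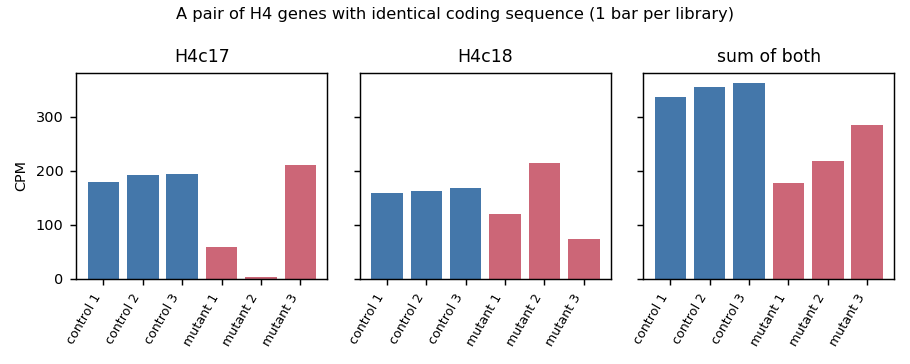
CPM (y axis, from 0) of H4c17, of H4c18 and of their sum in each library, 1 bar per library. H4c17 ranges from 3.60 to 211 CPM among mutant libraries and H4c18 runs the opposite way, while the sum is between 178 and 285 CPM in mutant and 336 and 363 CPM in control libraries.

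Only 4 members, H1f1, H1f5, H2bc21 and H4c14, had counts within 0.01 of a whole number in every library, and their median log2 fold change was -0.52. The others held fractions in at least 1 library, so that their separate values are uncertain where copies are near-identical, while class sums keep reads divided within a class. Whether strand was used in counting is not stated, so reads of overlapping or antisense genes cannot be told apart. Comparing levels between genes needs their length. Per kilobase of coding sequence, the most abundant gene of each class was H2ac18 with 1154, H1f2 with 919, H2bc8 with 842, H4c4 with 825 and H3c15 with 633 CPM in control libraries. In mutant libraries these were at 697, 628, 518, 579 and 429 CPM per kilobase.

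Libraries differed among themselves in a way that ran through the family. Mutant 3 was the highest mutant library in 52 of 61 members, and the lowest was mutant 1 in 35 and mutant 2 in 25 members. Among the controls, control 1 was the lowest in 37 members. Relative to the control mean, the median member was at a log2 level of -0.06, 0.03 and 0.05 in control 1, 2 and 3 and of -0.66, -0.66 and -0.31 in mutant 1, 2 and 3. Mutant 3 thus held about the middle between the controls and the other mutant libraries. For H1 mutant 2 stood lowest, at -0.74, beside -0.48 and -0.49 in mutant 1 and 3. For H3 mutant 2 was at -0.70, beside -0.62 and -0.29.

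**Figure D4:**
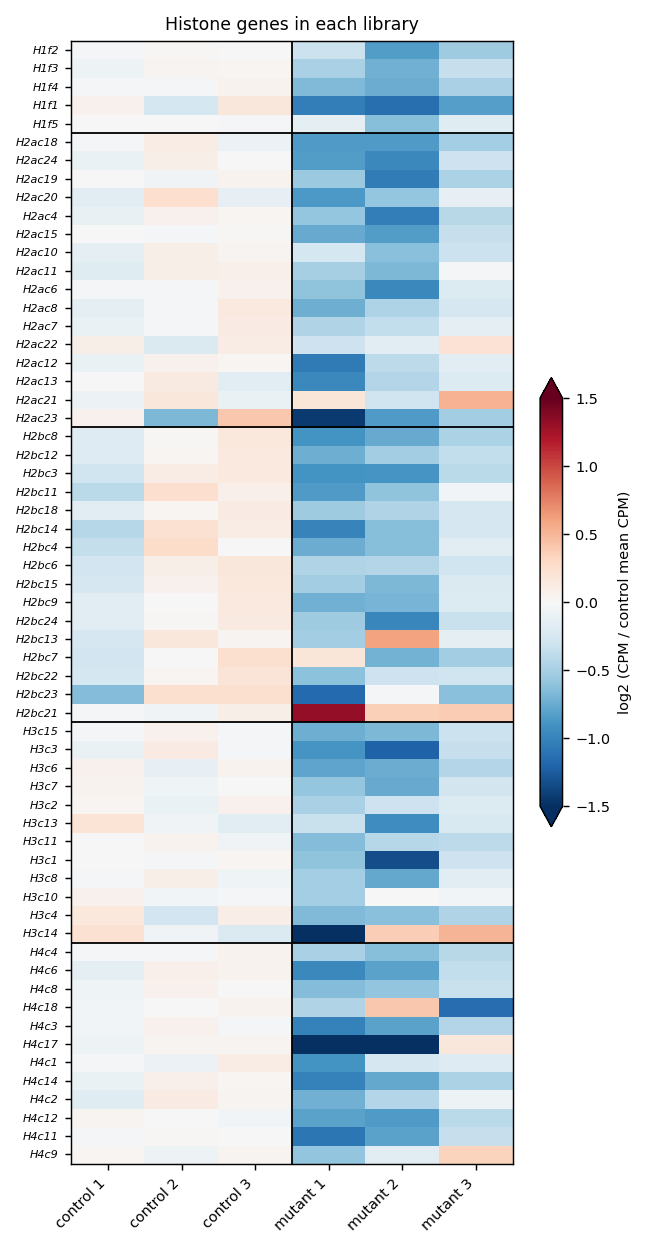
Log2 ratio of CPM to the control mean (colour, which saturates at 1.5 in either direction) for 61 histone genes in the 6 libraries, by class and level. Blue fills most cells of the mutant libraries, more faintly in mutant 3, and H4c17 and H4c18 take opposite colours in mutant 2 and mutant 3.

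Members were also set out by chromosome and annotated end. The 51 tested genes on chromosome 13 had a median log2 fold change of -0.52, with 50 of them lower, and the 10 on chromosome 3 had -0.48, with 7 lower; the 3 others, H2bc21, H2ac21 and H3c14, were all under 10 CPM. The 22 members whose annotated transcript ends within 100 bases after the stem-loop had a median of -0.56 and were lower in 22 of 22 cases, 12 of them at an unadjusted p under 0.05. For the 18 whose model runs farther the median was -0.55, with 17 lower, 16 of them by that rule. For the 21 tested members with no match it was -0.46, with 18 lower, 9 of them by that rule. Of all genes tested 3.48% were lower by that rule, or 5.05% of those at 10 CPM or more. These are descriptions, and a link with chromosome or annotated end was not tested.

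The genes that surround histone supply were followed through 5 lists. The replication-independent histones, most of which are made outside S phase as well and have polyadenylated mRNAs, had a median log2 fold change of -0.15 over 12 tested genes. Of these 9 were lower and 0 passed edgeR's test. Groups did not overlap for 4 of the lower ones, where 7.48% of all genes tested, or 10.8% at 10 CPM or more, were lower without overlap. Of these 4, H2ax and H2bu2 stand closer to the cluster genes. H2ax mRNA can also end in a stem-loop, and H2bu2 carries a cluster-type name in older nomenclature. For H2ax, mutant 3 was only just below control 3, both at 154 CPM. H3f3b averaged 510 ± 41.2 CPM in the controls and 423 ± 59.8 CPM in mutant libraries (SD, n = 3), with overlap. H2az1 was at 341 ± 42.6 and 302 ± 51.7 CPM. H2aj, an H2A variant, was the gene of the list that was higher in every mutant library, at 17.8, 21.8 and 16.9 CPM in control 1, 2 and 3 and at 28.5, 29.5 and 22.8 CPM in mutant 1, 2 and 3 (log2 fold change 0.52 ± 0.17, SE). H2bu2 was at 4.14 ± 0.42 and 2.7 ± 0.34 CPM, and Macroh2a2 was under 1 CPM in all libraries.

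Among factors that transcribe histone genes and process their mRNAs, 21 of 32 tested were lower, with a median log2 fold change of -0.08, and 0 passed edgeR's test. Groups did not overlap for 3 of them, a share near that of all genes (7.48%, or 10.8% at 10 CPM or more). Slbp, which binds the stem-loop, was at 139, 177 and 159 CPM in control 1, 2 and 3 and at 108, 157 and 182 CPM in mutant 1, 2 and 3. Its groups overlapped, with mutant 1 lowest and mutant 3 highest (log2 fold change -0.09 ± 0.21, SE; 95% interval from -0.57 to 0.39). Npat, the coactivator of histone transcription, had -0.13 ± 0.13, and Casp8ap2, a component of the histone locus body, -0.18 ± 0.17. Lsm10 and Lsm11, proteins of the U7 particle, had -0.24 ± 0.17 and -0.15 ± 0.15. Zfp473, a zinc finger protein of histone pre-mRNA processing, was at 8.60 ± 2.34 CPM in the controls and 5.62 ± 0.21 CPM in mutant libraries (SD, n = 3), and Cpsf3, the endonuclease that cuts the pre-mRNA, at 112 ± 16 and 89.1 ± 4.41 CPM. Ybx1, an RNA-binding protein, had -0.40 ± 0.24.

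Histone chaperones, which carry histones to DNA, were lower in 21 of 26 tested genes, with a median log2 fold change of -0.18. Groups were separate for 3 of them, again near the 10.8% of all genes at 10 CPM or more, and 0 passed edgeR's test. Ssrp1, a subunit of the FACT complex, was at 440 ± 56.9 CPM in the controls and 312 ± 41.0 CPM in mutant libraries (SD, n = 3). Asf1a, which hands over H3 and H4, was at 57.6 ± 2.54 and 44.7 ± 8.14 CPM, and Hat1, which acetylates new H4, at 129 ± 11.9 and 98.2 ± 27.5 CPM. Set and Atrx had log2 fold changes of -0.34 ± 0.24 and 0.06 ± 0.13 (SE).

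Genes of S phase and of G2-M were also lower, by smaller medians than the histones. Of 41 S phase genes 39 were lower, 8 without overlap, with a median log2 fold change of -0.24. All 22 G2-M genes were lower, 9 without overlap, with a median of -0.27. Over all genes at 10 CPM or more, 54.9% were lower and 10.8% lower without overlap. In neither list did a gene pass edgeR's test. Pcna, the sliding clamp of replication, was at 339, 406 and 339 CPM in the controls and at 294, 302 and 359 CPM in mutant libraries, with overlap (-0.18 ± 0.15, SE). Lig1, the ligase that joins Okazaki fragments, had -0.90 ± 0.15, Pole -0.39 ± 0.13 and Prim2 -0.45 ± 0.16, while Rrm1 and Mcm6 had -0.36 ± 0.18 and -0.16 ± 0.17. Among G2-M genes Kif15, a mitotic kinesin, had -0.82 ± 0.12, Cenpe -0.52 ± 0.16, Bub1 -0.53 ± 0.18, Top2a -0.15 ± 0.13 and Mki67 -0.06 ± 0.14.

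Set side by side by library, the histone and S phase lists differed most in mutant 2 and 3. The median S phase gene was at a log2 level of -0.16, 0.15 and -0.01 in control 1, 2 and 3 and of -0.53, -0.30 and -0.01 in mutant 1, 2 and 3. Mutant 3 was thus level with the controls for S phase genes but at -0.31 for histone genes. The median G2-M gene was at -0.12, 0.16 and -0.01 in control 1, 2 and 3 and at -0.48, -0.21 and -0.14 in mutant 1, 2 and 3, without overlap. The part of the number of cycling cells in the histone values was not tested.

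**Figure D5:**
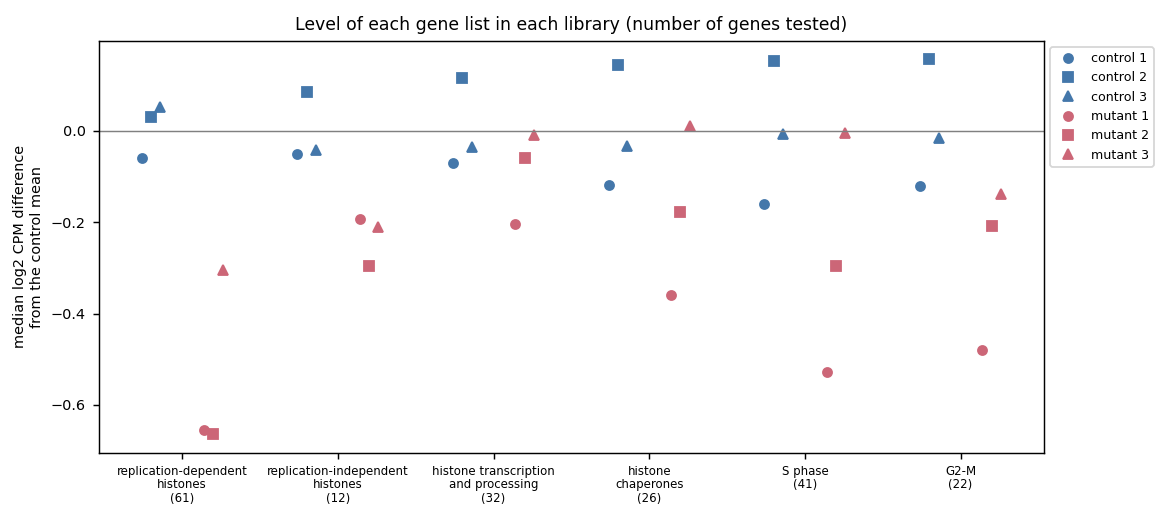
Median log2 CPM difference from the control mean (y axis) in each library, 1 point per library, for the 61 replication-dependent histone genes and 5 lists of related genes. The histone genes are at -0.66, -0.66 and -0.31 in mutant 1, 2 and 3, below all 3 controls. The replication-independent histones and the G2-M genes are also below all controls, by less, and the other 3 lists overlap between the groups.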

How the data were processed

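RNA-seq libraries, 3 control and 3 mutant, were compared. Per the submitters' processing notes, the authors used STAR 2.7.8a and Partek with GRCm39 and mm39; neither the annotation nor strand use is given in the sources used here. The authors deposited estimated counts per gene, not normalized, of which 57.8% were whole. All were rounded. Genes without a symbol (863) and 32 sharing one were named by ID. Totals were 33633196, 43928723 and 36068040 in control 1, 2 and 3 and 34524433, 34689302 and 36867313 in mutant 1, 2 and 3. Every pair of libraries within a group differed beyond sampling noise (chi-square over its degrees of freedom, 18.7 to 175).

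In R 4.3.3, filterByExpr (minimum count 10) kept 18323 genes with 99.92% of counts. edgeR 4.0.16 scaled libraries by TMM and compared mutant with control by its quasi-likelihood test on all 6 libraries without covariates (robust, two-sided, Benjamini-Hochberg over all genes, threshold 0.05). The SE is the absolute fitted difference over the root of the F statistic. CPM use TMM-scaled totals. Class sums and medians are descriptions. Log2 levels of a list are medians over its genes (prior count 2). The procedure was tested on simulated data. DESeq2 1.42.0 and limma-voom (limma 3.58.1), other scalings and filters, a replicate block and leaving out each library were alternatives. DESeq2 gave 10787 genes no adjusted p. Sums of identical copies, DESeq2 without each library and members with whole counts only were added after seeing the data.

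Members and lists were chosen with earlier results of these data known. Members given per library were, in each class, the 4 most abundant, the one with the smallest p and those with the lowest and highest log2 fold change. From each list the text names the 3 genes with the smallest p and the 2 most abundant, plus Slbp, Npat, Lsm10, Lsm11, Casp8ap2 and Pcna; 1 gene that this rule takes is not reported here. Others were named after their values were seen. Transcripts came from GENCODE M21 and promoters from RefSeq (GRCm38.p6), another build than the authors', matched by gene ID and by symbol.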

Additional observations from a re-analysis of the deposited data

How the results depend on the processing

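The members' median log2 fold change stayed between -0.65 (without mutant 3) and -0.43 (without mutant 2) in the edgeR and limma-voom fits, and was -0.53 with DESeq2 and -0.67 with DESeq2 without mutant 3. edgeR called 0 members and 0 genes under every setting. DESeq2 called 99 genes and 3 members, and 0 to 22 members without one library: 0 without control 1 or control 3, 1 without control 2 or mutant 2, 9 without mutant 1 and 22 without mutant 3. Leaving out each library gave class medians from -0.61 to -0.41 for H1 (-0.41 without mutant 2), -0.71 to -0.40 for H2A (-0.71 without mutant 3), -0.61 to -0.39 for H2B, -0.64 to -0.41 for H3 and -0.73 to -0.52 for H4. The replicate numbers are not said to pair the samples. Deviations of same-numbered libraries correlated at -0.07 to -0.03, those of other pairs at -0.01 to 0.07. With 3 libraries a group, these values cannot decide whether the samples were paired. With the number as a replicate block, 0 genes were called and the members' median was -0.53. Among 59 named genes, 747 of 766 alternative values kept their direction. The sign turned with libraries left out for H2ac21 (-0.047 without mutant 3 to 0.38), H4c18 (-0.73 to 0.033 without mutant 3), H4c9 (-0.36 to 0.12 without mutant 1), Slbp (-0.26 to 0.11 without mutant 1), Mki67 (-0.11 to 0.031 without control 3) and H2ac22 (-0.24 to 0.0035 without control 3 and 0.048 without mutant 1). H2bc13 ran from -0.29 without mutant 2 to 0.29 without mutant 1, and was -0.057 without control 1, -0.0088 with limma-voom and -0.0074 with the replicate block. H3c14 ran from -0.33 without mutant 3 to 0.45 without mutant 1, was below 0 also without control 2, control 3 or mutant 2, and turned with no count filter (-0.001), DESeq2 (-0.0024), limma-voom (-0.25) and the replicate block (-0.20). Apart from the lost library, the cause was not tested. Identical copies, unknown strand use and 3 libraries a group limit the single-gene values.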

Other observations

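A few histone genes fell outside the symbol rule although they carried cluster-type names in older nomenclature, and 3 were close to the members in size of difference. H2aw was at 54.2, 50.3 and 54.2 CPM in control 1, 2 and 3 and at 34.8, 26.1 and 40.9 CPM in mutant 1, 2 and 3, a log2 fold change of -0.64 ± 0.18 (SE) without overlap. H4f16 was at 58.8, 81.9 and 74.5 CPM in the controls and at 29.2, 44.8 and 64.3 CPM in mutant libraries (-0.64 ± 0.28), with mutant 3 above control 1. H2bu2, at 2.35 to 3.02 CPM in mutant and 3.73 to 4.57 CPM in control libraries, had -0.62 ± 0.26. They were named after their values were seen, and none passed edgeR's test.

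H2ax, whose mRNA can end either in a stem-loop or in a poly(A) tail, was at 164, 194 and 154 CPM in control 1, 2 and 3 and at 127, 111 and 154 CPM in mutant 1, 2 and 3. Mutant 3 was level with control 3, and the log2 fold change was -0.38 ± 0.17 (SE). H1f0, the linker histone of resting and differentiated cells, was at 82.4, 85.3 and 102 CPM in the controls and at 117, 56.7 and 36.8 CPM in mutant libraries. Its mutant libraries lay on both sides of the controls, with mutant 3 lowest, whereas mutant 3 was the highest mutant library in 52 of 61 replication-dependent members.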
